A study of Mus musculus with 4 samples.

Results

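The RNA levels of 4 genes that set DNA methylation in mouse cells, *Dnmt3a*, *Dnmt3b*, *Dnmt3l* and *Tet2*, were followed in 46C mouse ESCs treated with the PKC inhibitor Go6983. The genes were taken by name, through their Ensembl identifiers, from a table of 1577 genes, and all 4 were in it. Total RNA was sequenced from 2 samples of cells given 5 μM Go6983 for 24 h and from 2 NT samples kept in control medium for 24 h without treatment. Both groups were grown in serum-containing medium. The labels state neither whether a solvent was added to the NT medium nor whether LIF was present, and 46C is 1 cell line. Nothing states that the replicates were separate cultures, so the spread between samples behind the p-values may be technical. The limma fit also draws the error of each gene toward that of listed genes of a like level. Its p-values therefore do not rest on the spread of 1 gene alone.

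The table lists only genes that had been selected as changed, and its smallest difference between group means is 1.00 on the log2 scale. That the 4 genes differ between the groups was therefore a condition of being listed, and the folds and p-values below describe their size and their error. The levels are normalized counts, that is, reads divided by a size factor of each sample. The 4 samples held 859777 to 1054236 reads in the listed genes. Total depth is unknown, and the counting errors given here cover counting only.

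DNA methylation in mammals is written on cytosines that stand before guanines (CpG). Dnmt3a and Dnmt3b are the *de novo* methyltransferases, which methylate sites that carried no mark. Dnmt3l has no catalytic activity of its own, binds Dnmt3a and Dnmt3b, and stimulates them. Tet2 is a dioxygenase that oxidizes 5-methylcytosine to 5-hydroxymethylcytosine, a step on the way to removal of the mark. ESCs in serum carry high levels of the Dnmt3 proteins. ESCs held in the naive ground state carry less of them and have hypomethylated genomes.

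In GRCm38, *Dnmt3a* (ENSMUSG00000020661) lies on chromosome 12 at 3806007–3914443, plus strand, with 18 annotated transcripts. *Dnmt3b* (ENSMUSG00000027478) lies on chromosome 2 at 153649450–153687730, plus strand, with 12 transcripts. *Dnmt3l* (ENSMUSG00000000730) lies on chromosome 10 at 78041947–78063622, plus strand, with 8 transcripts. *Tet2* (ENSMUSG00000040943) lies on chromosome 3 at 133463679–133545139, minus strand, with 10 transcripts. Each gene overlaps a gene on the other strand. The shared span is 2952 bp for *Dnmt3a* with *Dnmt3aos*, 837 bp for *Dnmt3b* with *Dnmt3bos*, 1664 bp for *Dnmt3l* with *Aire*, and 43 bp for *Tet2* with *Gm42567*. Whether the counting used strand is not given in the sources used here, so reads of such a pair cannot be told apart. Reads that *Dnmt3b* may share with its near copy *Dnmt3c* are likewise uncertain.

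The start sites of the 4 genes differ in base composition, and 5 upstream sequences are shown because 3 of the genes fell together and 1 rose. They come from RefSeq windows of build GRCm38.p6, which run 250 bases before and 50 bases after a start site. RefSeq gave 3 windows for *Dnmt3a*, 3 for *Dnmt3l*, 1 for *Dnmt3b* and 1 for *Tet2*. The 250 upstream bases are printed 5′ to 3′ on the strand of the gene. Capitals mark GGGCGG, the GC box, or its complement CCGCCC, and CACGTG, the E-box, where a match lies wholly in these bases. The first is the outermost RefSeq start of *Dnmt3a*, at chr12:3806730-3806979, plus strand, with no GENCODE transcript starting within 5 bases, and is called the outer start. The second is its internal start, at chr12:3891494-3891743, plus strand, from which the shorter transcript Dnmt3a-203 begins. *Dnmt3b* is at chr2:153649199-153649448, plus strand. *Dnmt3l* is the middle of its 3 windows, at chr10:78049592-78049841, plus strand, and *Tet2* is at chr3:133544391-133544640, minus strand.
Dnmt3a outer start: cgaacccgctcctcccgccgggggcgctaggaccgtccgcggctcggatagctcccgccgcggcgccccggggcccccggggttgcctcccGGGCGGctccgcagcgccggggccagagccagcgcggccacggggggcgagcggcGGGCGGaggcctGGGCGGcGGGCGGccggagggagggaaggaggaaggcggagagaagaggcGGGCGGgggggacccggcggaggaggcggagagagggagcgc
Dnmt3a internal start: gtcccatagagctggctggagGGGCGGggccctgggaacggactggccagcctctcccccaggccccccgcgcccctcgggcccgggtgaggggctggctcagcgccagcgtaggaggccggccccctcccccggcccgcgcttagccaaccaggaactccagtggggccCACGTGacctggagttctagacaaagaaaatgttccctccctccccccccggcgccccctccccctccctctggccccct
Dnmt3b: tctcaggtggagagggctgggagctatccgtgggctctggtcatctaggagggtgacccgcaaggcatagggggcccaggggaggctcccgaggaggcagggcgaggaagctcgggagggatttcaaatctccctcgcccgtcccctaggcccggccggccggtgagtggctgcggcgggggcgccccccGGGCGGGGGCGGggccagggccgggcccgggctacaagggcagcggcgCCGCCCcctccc
Dnmt3l: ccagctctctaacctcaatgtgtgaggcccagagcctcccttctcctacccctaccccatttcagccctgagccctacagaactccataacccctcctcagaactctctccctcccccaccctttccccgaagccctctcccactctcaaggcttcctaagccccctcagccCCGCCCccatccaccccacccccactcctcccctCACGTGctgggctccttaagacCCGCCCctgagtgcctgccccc
Tet2: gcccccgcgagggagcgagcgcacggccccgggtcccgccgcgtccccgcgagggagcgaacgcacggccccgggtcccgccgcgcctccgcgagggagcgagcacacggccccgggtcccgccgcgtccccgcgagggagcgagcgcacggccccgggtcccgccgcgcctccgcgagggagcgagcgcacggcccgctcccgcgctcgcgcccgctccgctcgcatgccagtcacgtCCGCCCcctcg

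Over the whole window of 300 bases, the *Tet2* start held 57 CpG and 81.3% G and C. Only 0.152% of the 32851 RefSeq windows held as many CpG. The outer *Dnmt3a* start held 46 CpG, a number reached by 1.65% of windows, and the second of its windows held 47. The *Dnmt3b* start held 30 CpG, reached by 11.7% of windows, and the internal *Dnmt3a* start held 18, reached by 29.7%. The 3 *Dnmt3l* windows held 6, 4 and 3 CpG, against a median of 7 over all windows. The *Dnmt3* genes, which fell together, thus began in windows that ranged from CpG-rich to below the median. *Tet2*, the 1 gene that rose, had the most CpG of the 4 genes. Whether CpG content goes with the direction of change was not tested. The ratio of observed to expected CpG was 1.17 for *Tet2*, 0.964 for the outer *Dnmt3a* start, 0.694 for *Dnmt3b* and 0.219 for the *Dnmt3l* window shown.

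The GC box was searched on both strands and occurred in 35.7% of all windows. It was found 6 times at the outer *Dnmt3a* start, 4 times at *Dnmt3b*, 2 times at each of the internal *Dnmt3a* start and the *Dnmt3l* window shown, and 1 time at *Tet2*. The E-box CACGTG was present in 7.15% of windows. It was found at the internal *Dnmt3a* start, starting at position -80 from the start, and in the *Dnmt3l* window shown, at position -44. No other window of the 4 genes held it, so the *Dnmt3l* window shown differs in this from the other windows of that gene. The E-box reads the same on both strands, and none of the matches marked here overlapped another. The ETS core CCGGAA, the TATA box TATAAA, the PRDM14 motif GGTCTCTAA and the TCF motif CTTTGAT occurred in 14.9%, 13.6%, 0.256% and 3.73% of windows. None of these 4 motifs matched in the 8 windows of the 4 genes. A match, or its lack, describes letters in these windows and was not tested as a binding site.

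All 3 *Dnmt3* genes fell with Go6983, *Dnmt3b* and *Dnmt3a* further than *Dnmt3l*, while *Tet2* rose. *Dnmt3b* was at 28.8% of its NT mean, *Dnmt3a* at 31.9%, *Dnmt3l* at 43.0% and *Tet2* at 204%. By limma with Benjamini-Hochberg adjustment over the 1577 genes, 3 of the 4 genes were called lower and 1 higher, in a table where 29.7% of genes were called lower and 68.8% higher. The median log2 fold change of the table was 1.21. Because listing required a difference, nothing is read from these counts about the 4 genes as a group. In bulk RNA, fewer cells that express a gene and less RNA per cell cannot be told apart.

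*Dnmt3a* had 7127 and 7173 normalized counts in the Go6983 samples and 23747 and 21136 in the NT samples. The groups did not overlap, and the Go6983 samples were nearly equal. The log2 fold change was -1.65 (SE 0.0987, limma adjusted p = 0.000375).

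*Dnmt3b* had 7948 and 7041 normalized counts in the Go6983 samples and 27439 and 24541 in the NT samples. Both Go6983 samples lay far below both NT samples, and replicate 1 was the higher in each group. The log2 fold change was -1.79 (SE 0.111, limma adjusted p = 0.000375), the most negative of the 4.

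*Dnmt3l*, the cofactor without catalytic activity, had 10014 and 9278 normalized counts in the Go6983 samples and 22878 and 21935 in the NT samples. Replicates lay close together in both groups, with no overlap between the groups. The log2 fold change was -1.22 (SE 0.0934, limma adjusted p = 0.000428).

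*Tet2* had 17024 and 16422 normalized counts in the Go6983 samples and 10783 and 5608 in the NT samples. The Go6983 samples were nearly equal and above both NT samples, whereas the NT samples differed by 1.92-fold. The log2 fold change was 1.10 (SE 0.294, limma adjusted p = 0.0137), with the largest SE of the 4 genes. That SE borrows from other listed genes, and without the trend in limma it was 0.372 (limma adjusted p = 0.0437). The size of the log2 fold change rested on which NT sample was used. Leaving out NT replicate 1 gave 1.58, and leaving out NT replicate 2 gave 0.63. The call was lost without Go6983 replicate 1 and without Go6983 replicate 2, although the log2 fold change hardly moved (1.08 and 1.13). In those fits only the NT samples, which lay far apart, gave the spread of *Tet2* itself. Without an NT sample only the nearly equal Go6983 samples gave it. A call kept or lost with a sample left out thus does not test the rise. The last setting that ended the call was a median ratio scaling, in which the listed genes themselves set the size of each library. It lowered the log2 fold changes of all listed genes alike and put *Tet2* at -0.02.

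**Figure D1:**
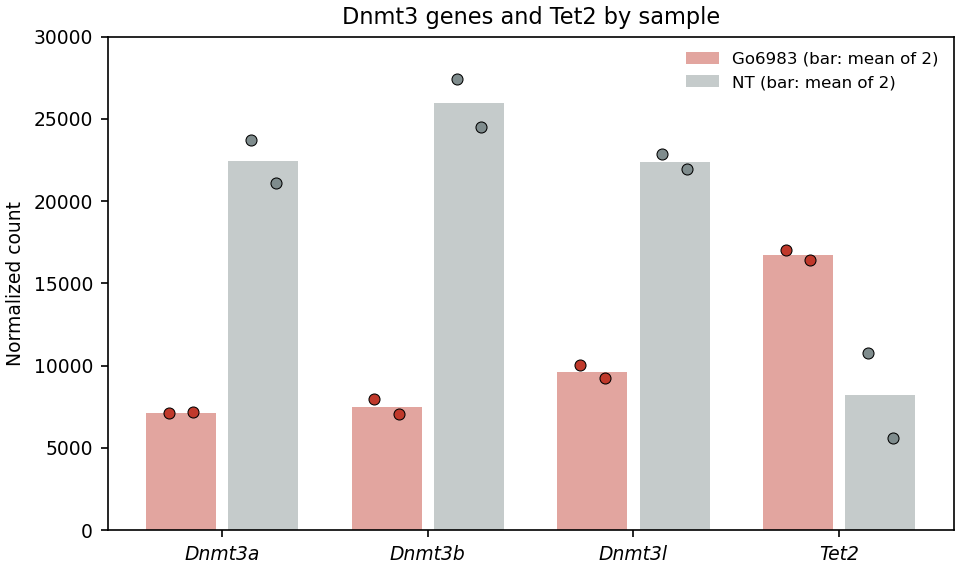
Normalized counts of the 4 genes in each of the 2 Go6983 and 2 NT samples; points are samples and bars are group means. For *Dnmt3a*, *Dnmt3b* and *Dnmt3l* both Go6983 samples lie below both NT samples, and for *Tet2* both lie above, with the NT samples at 10783 and 5608 apart from each other.

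Divided by the length of all annotated exons, the levels could be compared between genes. In the Go6983 samples *Dnmt3l* had 3351 and 3105 normalized counts per kb, *Dnmt3b* 1557 and 1379, *Tet2* 1009 and 973, and *Dnmt3a* 428 and 431. In the NT samples *Dnmt3l* had 7657 and 7341 per kb, *Dnmt3b* 5374 and 4806, *Dnmt3a* 1427 and 1270, and *Tet2* 639 and 332. The cofactor thus had the highest level per kb in all 4 samples, and with this length *Tet2* and *Dnmt3a* stood in opposite order in the groups. No neighbours in either order overlapped.

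The order of *Dnmt3b* and *Tet2* depended on the length used. With the longest annotated transcript of each gene, *Tet2* had 1855 and 1789 normalized counts per kb in the Go6983 samples and *Dnmt3b* had 1840 and 1630, so these neighbours overlapped. With that length the order in the NT samples did not change. Which transcripts the cells used was not measured. If all *Dnmt3a* reads came from Dnmt3a-203, its level would be 1314 and 1322 per kb in the Go6983 samples and 4378 and 3897 in the NT samples. *Dnmt3a* would then stand above *Tet2* per length of all exons in both groups. Per length of its longest transcript, *Tet2* had 1855 and 1789 in the Go6983 samples and 1175 and 611 in the NT samples. Against these values *Dnmt3a* would stand below *Tet2* in the Go6983 samples and above it in the NT samples. Whether the order was opposite in the groups thus depended on the lengths taken for both genes.

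The reads of the 3 *Dnmt3* genes together fell to 25089 and 23492 normalized counts in the Go6983 samples, against 74064 and 67613 in the NT samples. The Go6983 mean, 24290 ± 1130 (SD, n = 2), was 34.3% of the NT mean, 70839 ± 4562 (SD, n = 2). The makeup of this sum also differed. *Dnmt3l* gave 39.9% and 39.5% of it in the Go6983 samples and 30.9% and 32.4% in the NT samples. *Dnmt3b* gave 31.7% and 30.0% in the Go6983 samples and 37.0% and 36.3% in the NT samples. *Dnmt3a* differed least, with 28.4% and 30.5% in the Go6983 samples and 32.1% and 31.3% in the NT samples. The largest part of the reads thus belonged to *Dnmt3l* in the Go6983 samples and to *Dnmt3b* in the NT samples.

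Ratios between genes of one sample do not depend on how the libraries are scaled. Of 4 ratios compared, each was higher in both Go6983 samples than in both NT samples. An exact permutation test of 2 samples against 2 (two-sided) gave p = 0.333 for each, which is the smallest p it can give, and the adjusted p over the 4 ratios was also 0.333.

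The ratio of the 2 catalytic genes moved little. *Dnmt3a*/*Dnmt3b* was 0.897 and 1.02 in the Go6983 samples and 0.865 and 0.861 in the NT samples. The gap between the groups, 0.0513 on the log2 scale, was smaller than the SD of the Go6983 samples, 0.130. The mean log2 difference was 0.15.

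The cofactor gained on both catalytic genes. *Dnmt3l*/*Dnmt3a* was 1.40 and 1.29 in the Go6983 samples and 0.963 and 1.04 in the NT samples, 1.35-fold higher with Go6983. *Dnmt3l*/*Dnmt3b* was 1.26 and 1.32 in the Go6983 samples and 0.834 and 0.894 in the NT samples, 1.49-fold higher with Go6983. In both cases the gap between the groups, 0.318 and 0.495 on the log2 scale, was over 3 times the SD of either group.

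The ratio of *Tet2* to the summed *Dnmt3* genes differed most. Every listed gene differed by at least 1.00 on the log2 scale, and *Tet2* rose while the *Dnmt3* genes fell. A wide difference in this ratio was thus set by the selection and is given for its size only. The ratio was 0.679 and 0.699 in the Go6983 samples and 0.146 and 0.0829 in the NT samples. The mean of the log2 ratio was higher by 2.65 with Go6983, or 6.27-fold. Counted in reads, the NT samples held 6.87 and 12.1 *Dnmt3* reads for each *Tet2* read, and the Go6983 samples 1.47 and 1.43. Most of the spread came from *Tet2* in the NT samples. Leaving out NT replicate 1 gave a log2 difference of 3.05, and leaving out NT replicate 2 gave 2.24.

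**Figure D2:**
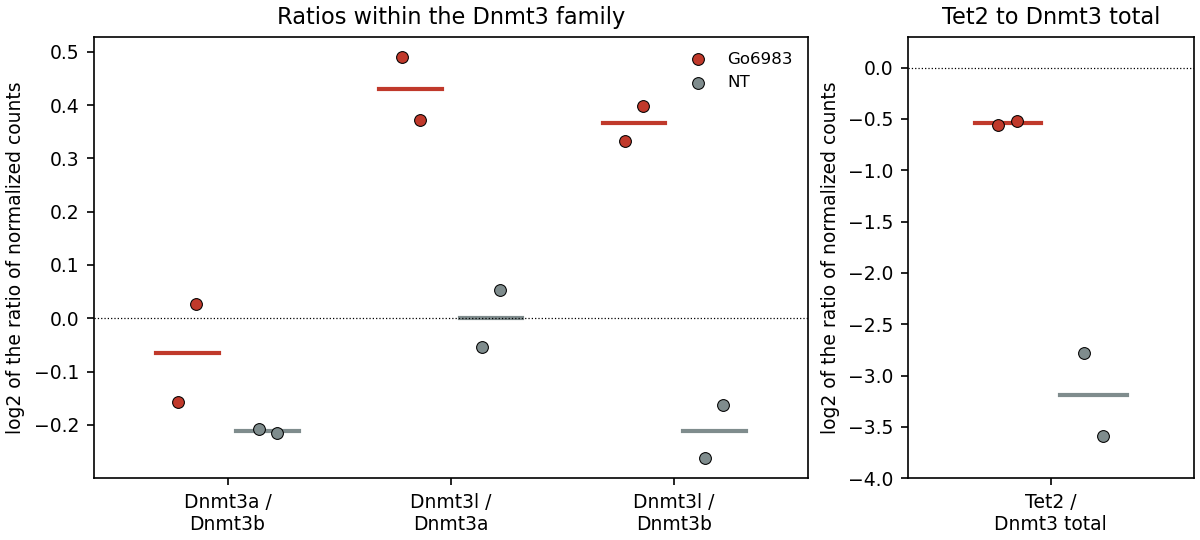
Log2 of the ratios of normalized counts in each of the 2 Go6983 and 2 NT samples; points are samples, lines are group means and 0 means equal counts. The group means of *Dnmt3a*/*Dnmt3b* are 0.15 apart, those of *Dnmt3l*/*Dnmt3a* 0.43, those of *Dnmt3l*/*Dnmt3b* 0.58 and those of *Tet2* over the *Dnmt3* total 2.65.

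Replicates were compared with counting error and with the 160 listed genes of a mean of at least 1000 normalized counts. Each of the 16 values had a counting error of 0.602% to 1.35%. Between the Go6983 samples, replicate 1 differed from replicate 2 by -0.0091 on the log2 scale for *Dnmt3a*, 0.17 for *Dnmt3b*, 0.11 for *Dnmt3l* and 0.05 for *Tet2*. The median size of this difference over the 160 genes was 0.115. *Dnmt3a* was one of the closest agreements, at 0.378 of its counting error, and ranked 155 of 160 in size. The differences of *Dnmt3b*, *Dnmt3l* and *Tet2* were 7.38, 5.28 and 3.28 times their counting error.

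Between the NT samples, replicate 1 was higher for all 4 genes, by 0.17 for *Dnmt3a*, 0.16 for *Dnmt3b*, 0.06 for *Dnmt3l* and 0.94 for *Tet2*. Replicate 1 was higher for 61.9% of the 160 genes. The differences of the *Dnmt3* genes lay near the median size of 0.130 or below it. For *Dnmt3a*, *Dnmt3b* and *Dnmt3l* the difference was 12.3, 12.6 and 4.43 times its counting error. That of *Tet2* was 39.5 times its counting error, and ranked 6 of 160.

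The 5 genes whose NT samples lay farther apart than those of *Tet2* differed in both directions. *Ntn1*, which encodes the guidance cue netrin-1, had 6157 and 7107 normalized counts in the Go6983 samples and 562 and 2120 in the NT samples. *Zfp62*, *Csnk1g1*, *Lyar* and *Nhsl1* had NT differences of -1.79, -1.47, 0.98 and 0.95 on the log2 scale. NT replicate 1 was thus higher for *Lyar*, *Nhsl1* and *Tet2* and lower for the other three. The Go6983 samples of *Nhsl1* (1430 and 1353) were close together, as were those of *Tet2*.

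**Figure D3:**
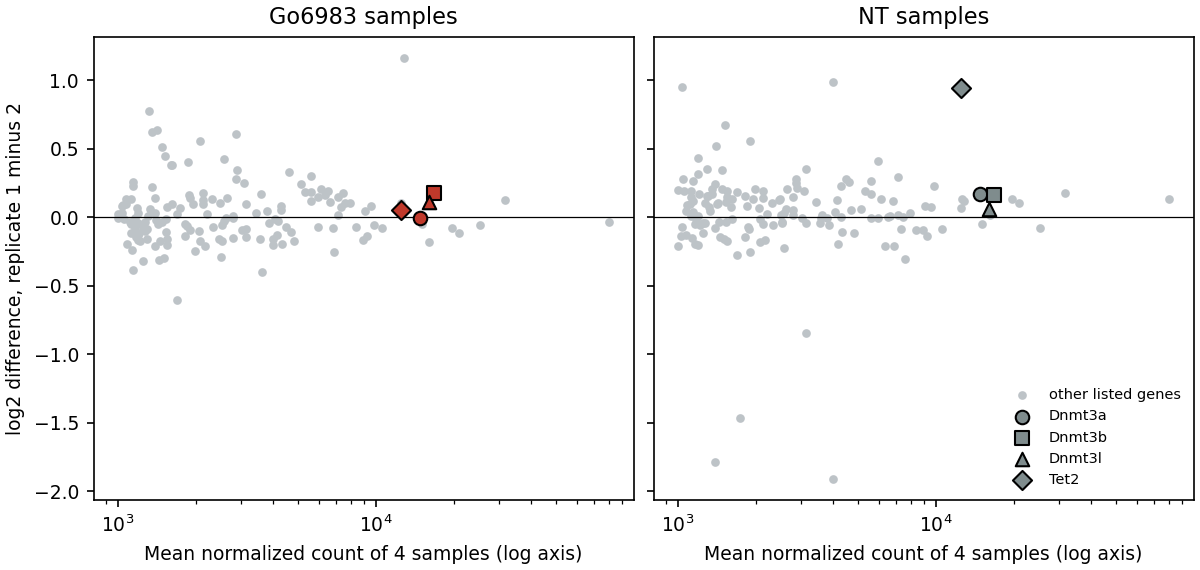
Log2 difference of replicate 1 and replicate 2 against the mean normalized count (log axis) for the 160 listed genes of a mean of at least 1000, in Go6983 samples (left) and NT samples (right); each point is a gene and the 4 genes have their own symbols. *Tet2* stands at 0.94 in the NT samples and at 0.05 in the Go6983 samples, and the *Dnmt3* genes lie close to 0 in both.

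Over the 469 genes called lower, *Dnmt3b* accounted for 5.19% of the summed fall in normalized counts, *Dnmt3a* for 4.29% and *Dnmt3l* for 3.58%, together 13.1%. Only *Slc38a2*, which encodes an amino acid transporter, lost more reads, 25432 normalized counts. By log2 fold change, *Dnmt3b*, *Dnmt3a* and *Dnmt3l* ranked 160, 190 and 345 from the lowest of all listed genes. *Tet2* gained 8527 normalized counts, 1.93% of the summed rise of the genes called higher, and was the sixth largest gain, although its log2 fold change ranked 942 from the highest.

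The profile of each gene over the 4 samples was compared with the other listed genes of a mean of at least 1000, as the root mean square difference of log2 values after each gene was centred on its own mean. These are descriptions over 4 samples, in a table selected for differences between the same groups. *Car2* (0.0616) and *Eprn* (0.0844) were among the nearest to *Dnmt3a*. *Car2*, a carbonic anhydrase, had 6456 and 6011 normalized counts in the Go6983 samples and 19163 and 18340 in the NT samples. *Grhl2* (0.0470), *Eprn* (0.0574) and *Mycn* (0.0620) were nearest to *Dnmt3b*.

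*Dnmt3a* and *Dnmt3b* differed from each other by 0.0981. *Dnmt3b* was the fifth nearest gene to *Dnmt3a*, and *Dnmt3a* the sixth nearest to *Dnmt3b*. *Dnmt3l* was farther off, at 0.223 from *Dnmt3a* and 0.292 from *Dnmt3b*. Its own nearest genes were *Ajuba* (0.0300), *Snrpn* (0.0331) and *Tmem230* (0.0408). *Ajuba*, a LIM domain scaffold gene, had 5449 and 5278 normalized counts in the Go6983 samples and 13150 and 12432 in the NT samples.

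*Nhsl1* was by far the nearest gene to *Tet2*, at 0.0127, and showed the same gap between the NT samples. It had 908 and 470 normalized counts in the NT samples. *Zyg11a* (0.154) and *Klf12* (0.186) came next. Under the median ratio scaling, which by its construction moves any gene with a log2 fold change like that of *Tet2* close to 0, *Nhsl1* was at -0.03, *Zyg11a* at -0.0024 and *Klf12* at 0.02. The *Dnmt3* genes stood between 118 and 146 in the order of likeness to *Tet2*.

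Few other genes of DNA methylation were in the table. Of 22 further enzymes and factors that write or remove the mark, 2 were listed. Both were called lower, in a table with 29.7% of genes called lower. Among them was *Gadd45g*, a stress-induced gene linked to DNA repair and demethylation. It had 160 and 155 normalized counts in the Go6983 samples and 1707 and 1668 in the NT samples, with both Go6983 samples far below both NT samples. The log2 fold change was -3.41 (limma adjusted p = 0.000161), against a median of 1.21 over all listed genes. *Dnmt1*, *Tet1* and *Tet3* were not in the table and were not analysed here, since a gene outside it may have been expressed and unchanged, or changed by less than was asked of listed genes.

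Of the 21951 protein-coding genes annotated in GENCODE M21, 5.47% were listed, so short lists may hold few listed genes or none. None of 15 readers of CpG methylation and CXXC proteins was listed, and none of 30 germline genes known to be silenced by promoter methylation. Of 25 chromatin factors linked to DNA methylation, 1 was listed and rose. It was *Prdm14*, a PR domain protein that represses the *Dnmt3* genes in naive ESCs. *Prdm14* had 1900 and 2141 normalized counts in the Go6983 samples and 838 and 929 in the NT samples (log2 fold change 1.19, limma adjusted p = 0.000484). The median ratio scaling by its construction moves a log2 fold change of this size close to 0, so it could not test this rise. Under it *Prdm14* was at 0.07 and was not called (limma adjusted p = 0.708).

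Of 32 imprinted genes, whose parental alleles differ in DNA methylation, 4 were listed, 3 lower and 1 higher, in a table with 29.7% of genes called lower and 68.8% higher. Their median log2 fold change was -1.39, against 1.21 over all listed genes. *Magel2* had 337 and 267 normalized counts in the Go6983 samples and 1530 and 1409 in the NT samples (-2.29, limma adjusted p = 0.000388). *Cdkn1c*, a cell cycle inhibitor, had 1462 and 1090 in the Go6983 samples and 3922 and 3834 in the NT samples (-1.62, limma adjusted p = 0.000484). *Snrpn* fell by 1.15 on the log2 scale (limma adjusted p = 0.000428).

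*Plagl1*, a zinc finger gene, was the imprinted gene that rose. It had 114 and 123 normalized counts in the Go6983 samples and 39.8 and 51.1 in the NT samples (1.37, limma adjusted p = 0.00378). That call was lost without Go6983 replicate 1 (limma adjusted p = 0.0697), without Go6983 replicate 2 (limma adjusted p = 0.0800) and under the median ratio scaling (0.27, limma adjusted p = 0.480). The median ratio scaling lowers the log2 fold changes of all listed genes alike, so the call lost under it could not test the rise of *Plagl1*. Alleles were not separated, and DNA methylation itself was not measured in these samples.

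Cell type markers were in the table only where they had been selected as changed. Of 12 ESC markers 3 were listed. *Nanog* (34286 normalized counts in Go6983 samples and 16447 in NT samples) and *Klf4* (14163 in Go6983 samples and 7010 in NT samples) were higher, and *Utf1* (10135 in Go6983 samples and 22374 in NT samples) was lower. Their summed level was 58115 and 59052 in the Go6983 samples and 45252 and 46409 in the NT samples. Of 12 markers of differentiated cells 2 were listed. *Col1a2* (80.4 in Go6983 samples and 36.3 in NT samples) was higher, and *Pax6* (25.3 in Go6983 samples and 68.4 in NT samples) was lower. Their sums were 105 and 106 in the Go6983 samples and 110 and 99.1 in the NT samples, since the changes were opposite. The sums of both lists mix rises with falls, so they do not show how cell makeup compared. The part of cell makeup in the changes of the 4 genes was not tested.

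Of the 4 genes, the *Dnmt3* genes stayed below the limma threshold, lower with Go6983, under each of 11 alternative settings. Some of these settings, such as the median ratio scaling, could not go against a fall. *Tet2* passed under 8 of the 11. With a sample left out, whether *Tet2* passed turned on which pair of replicates was left to give its spread. The replicate left out, the scaling and the test are set side by side in the plot of fold changes by setting.

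**Figure D4:**
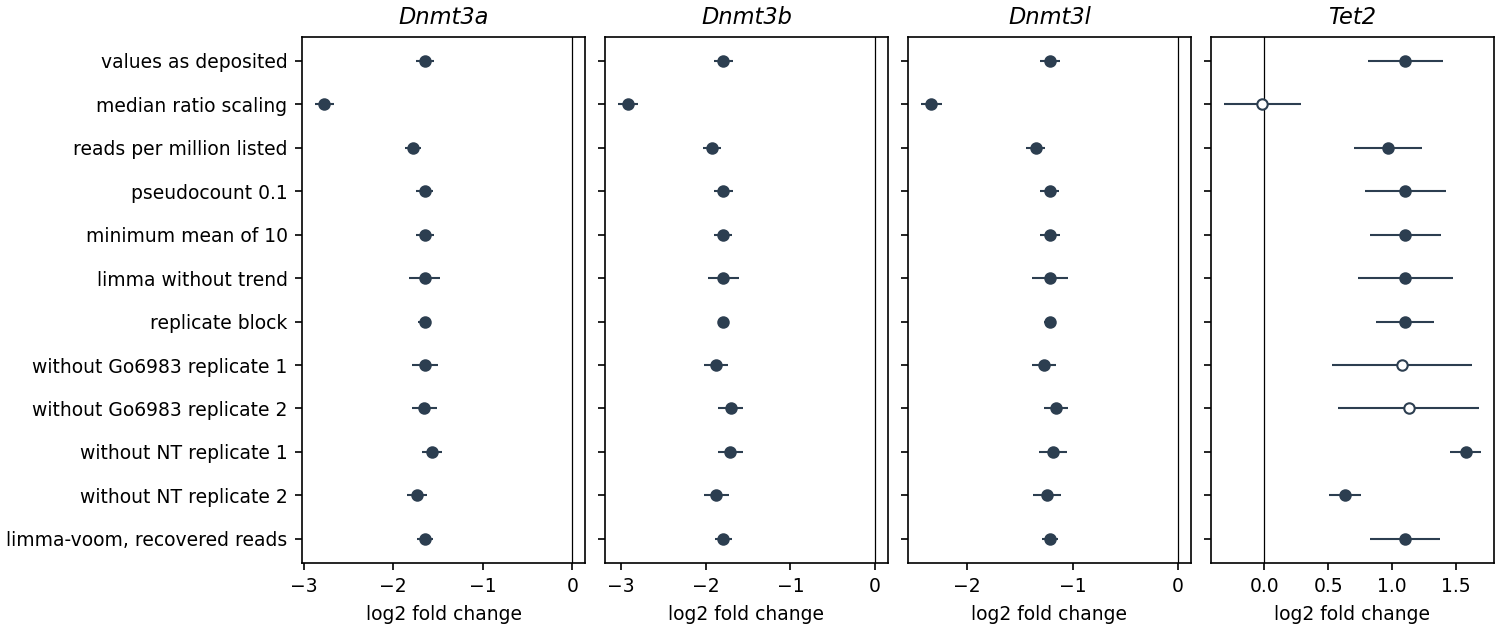
Log2 fold change, Go6983 over NT, of the 4 genes under 12 settings; dots are estimates, bars are SE, filled dots have a limma adjusted p below 0.05 and open dots do not. The *Dnmt3* genes are filled and below 0 in each setting, and *Tet2* is open under the median ratio scaling, where it sits at -0.02, and without either Go6983 replicate.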

How the data were processed

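Total RNA of 46C mESCs was sequenced from 2 Go6983 samples and 2 NT samples, grouped by their treatment labels. The authors deposited one log2 value per gene and sample for 1577 genes selected as changed, of which 1572 matched a symbol in GENCODE M21. Bowtie 0.12.2 and the build mm9 are named in the submitters' processing notes. For counting and normalization, the tool was not given in the sources used here. Group means, fold changes, p-values and FDR values by the authors stand in the table too and were not used.

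Undoing the log2 and the added 1 gave values that were whole multiples of one step per sample for 100% of values (within 0.05 of a whole number). The steps correspond to size factors of 1.07 and 0.934 for the Go6983 samples and 1.01 and 0.979 for the NT samples, and gave back the reads. Replicates were no copies of each other, with a chi-square per gene of 7.46 for the Go6983 samples and 10.2 for the NT samples.

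The fit was made on the deposited log2 values by limma 3.58.1 under R 4.3.3 (eBayes with trend, no filter, no block, pseudocount 1), with Benjamini-Hochberg adjustment over all 1577 genes and a threshold of 0.05. The fit had 2 residual and 3.63 prior degrees of freedom. Fold changes are on the log2(value + 1) scale. The limma step was tested on simulated data. Ratios were tested by exact permutation (scipy 1.17.1).

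Named genes were the 4 members, the 3 genes most like each, up to 5 genes with the widest NT spread, and the listed genes of 5 gene lists. Some genes that the rule takes are not reported here. *Slc38a2* and the cell type markers were named outside that rule. The members and lists were chosen with earlier results of these data known. Alternatives were another scaling, pseudocount, filter, variance model or gene length, a replicate block and each replicate left out. The limma-voom fit on recovered reads, and scaling by total recovered reads for the count of listed genes called, were added after the data were seen. Coordinates are of GRCm38, and no mm9 coordinate was used. Protein sequences were not used here.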

Additional observations from a re-analysis of the deposited data

How the results depend on the processing

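*Dnmt3a*, *Dnmt3b* and *Dnmt3l* kept their direction and passed the threshold under all 11 alternatives. Dividing by the median ratio over the listed genes shifted the median log2 fold change by -1.10, set *Tet2* at -0.018 and cut the listed genes called to 652 (176 higher and 476 lower, against 1085 and 469). Scaling by the total reads of the listed genes shifted it by -0.13. Under the median ratio scaling *Dnmt3a*, *Dnmt3b* and *Dnmt3l* were at -2.77, -2.92 and -2.34. With 1 sample left out, *Tet2* ranged between 0.63 and 1.58, and the listed genes called between 691 and 1169. A lone sample was then assumed to vary like the others. With the replicate number as a block (replicate block), *Tet2* stood at 1.10 (limma adjusted p = 0.0133) and 1536 listed genes were called. The block changed no call of the 4 genes. Same-numbered samples deviated together only weakly (correlation 0.0993 over 894 genes). The labels do not say whether they share more than a number. With 2 samples a group the exact permutation test of a ratio could not pass, and depth outside the listed genes is unknown.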
